A study of Mus musculus with 24 samples.

Results

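Levels of 37 genes of the lysosome were compared in the frontal cortex of GFAP-IL6 and wild-type (WT) mice. The genes were chosen by name from a table of 33000 genes as lysosomal hydrolases, lysosomal membrane proteins, their accessory factors and the transcription factor Tfeb, with the cathepsins left out. All 37 passed the filter on low counts, among 14621 genes tested. Total RNA came from 3 WT C57BL/6 mice and 3 mice homozygous for the GFAP-IL6 transgene, all 3 months old, the transgene being Il6 under the control of the astrocyte promoter of Gfap. The WT mice do not carry the transgene, and the labels give C57BL/6 as the strain of every mouse. Each mouse gave 4 libraries by 3'Pool-seq, in which cDNA primed at the polyA tail is fragmented and its 3' end fragments are selected by PCR. Tagmentation, the step that fragments the amplified cDNA, started from 2 ng or from 1 ng. Each mouse has a library of either amount in a set called A and in a set called B, whose meaning is not given in the labels. The mouse was the replicate, so the counts of its 4 libraries were summed.

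Lysosomes are acidic organelles in which hydrolases break down proteins, glycans, lipids and nucleic acids delivered by endocytosis, phagocytosis and autophagy. The hydrolases work inside a membrane of heavily glycosylated proteins, channels and transporters, and a proton pump, the V-ATPase, keeps the interior acidic. In brain every cell type has lysosomes, microglia as the resident phagocytes have many, and inherited loss of single lysosomal enzymes causes storage diseases that often affect neurons.

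Counts per library ranged from 1524165 to 12256374, and the sums per mouse from 7852743 to 37582644. Values are CPM, the count of a gene relative to a fixed library total, scaled by the trimmed mean of M values (TMM). The 37 genes held from 12 to 19255 counts per gene and mouse. Il6 was between 0 and 0.260 CPM in WT mice and between 1.58 and 4.23 CPM in GFAP-IL6 mice, and Gfap between 16.01 and 23.5 against 80.9 and 146 CPM. Summed choroid plexus markers set WT mouse 3 apart, at 4074 CPM against 80.2 to 753 CPM in the other mice. Neuron markers summed to between 5565 and 6611 CPM in every mouse, with none of the 9 at 0 in all mice.

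Tfeb and its relatives bind a palindrome that holds the letters CACGTG, with TCACGTGA as the extended form, in promoters of many lysosomal genes. In the 300 bases from 250 before to 50 after each RefSeq start (build GRCm38), CACGTG was present for 10 of the 34 genes with an entry (29.4%) and for 8.09% of 27025 genes with an entry. TCACGTGA, which contains CACGTG, was present for 3 of the 34 (8.82%) and for 1.12% of all. Both motifs read the same on either strand. The 3 genes with TCACGTGA were Mcoln1, Cln3 and Gla, and Lgmn was the only gene with CACGTG among the 5 that rose in GFAP-IL6 cortex. These 4 are shown because they carry the extended motif or join the motif to a change in level. The windows of 30 bases below have the motif in capitals.
Lgmn, chr12:102439124-102439153, minus strand: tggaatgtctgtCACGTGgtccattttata
Mcoln1, chr8:3500462-3500491, plus strand: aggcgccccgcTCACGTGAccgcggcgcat
Cln3, chr7:126583340-126583369, minus strand: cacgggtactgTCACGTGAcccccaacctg
Gla, chrX:134601182-134601211, minus strand: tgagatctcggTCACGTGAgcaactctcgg

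The first base of CACGTG lay 49 bases before a listed start in Lgmn, 45 in Mcoln1, 121 in Cln3 and 194 in Gla. Lamp1 had the most copies, 4 of CACGTG, and Cln3, Gla and Mcoln1 had 2 each. Cd68, Cd63, Hexa and Npc2, which also rose, had neither motif in this window, and 9 of the 29 genes that were not called and had an entry held CACGTG. Lgmn and Cln3 have 2 listed starts each, and in both the motif lies only in the window of the downstream start, while that of the upstream start has none. This places the motif inside the annotated gene in both cases. The Mcoln1 window shown also lies inside its annotated GENCODE gene, which starts at 3500457, while that of Gla lies upstream of its gene. A match describes the letters of this window only, and no binding was measured.

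At an adjusted p under 0.05, 5 of the 37 genes were higher in GFAP-IL6 cortex and 0 were lower. They were Cd68, Lgmn, Cd63, Hexa and Npc2, with folds between 1.32 and 1.85, so that none reached the change of more than 1 on the log2 scale that defines a DEG. Among all genes tested, 1.74% were called higher, 0.0547% lower and 1.2% were DEGs with a higher level, by the same edgeR quasi-likelihood test. At an unadjusted p under 0.05, 7 of the 37 were higher and 1 was lower, beside 1279 of all 14621 genes in either direction, and DESeq2 called 5 higher, 0 lower and 0 DEGs. The median log2 fold change of the 37 was 0.14, with 24 above 0, while that of all genes was -0.01, with 48.1% above 0. Together the 37 genes summed to between 3094 and 3182 CPM in WT mice and between 3209 and 3451 CPM in GFAP-IL6 mice. The 5 called genes are part of this sum. Their means differed by 85.9 CPM for Cd63, 42.1 for Npc2, 39.9 for Lgmn, 21.4 for Hexa and 15.3 for Cd68. Of the other 32 genes, 19 had a positive and 13 a negative log2 fold change, and Atp6ap2 differed by -24.1 CPM. Whether the group rose as a whole, apart from the 5 called genes, was not tested.

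**Figure D1:**
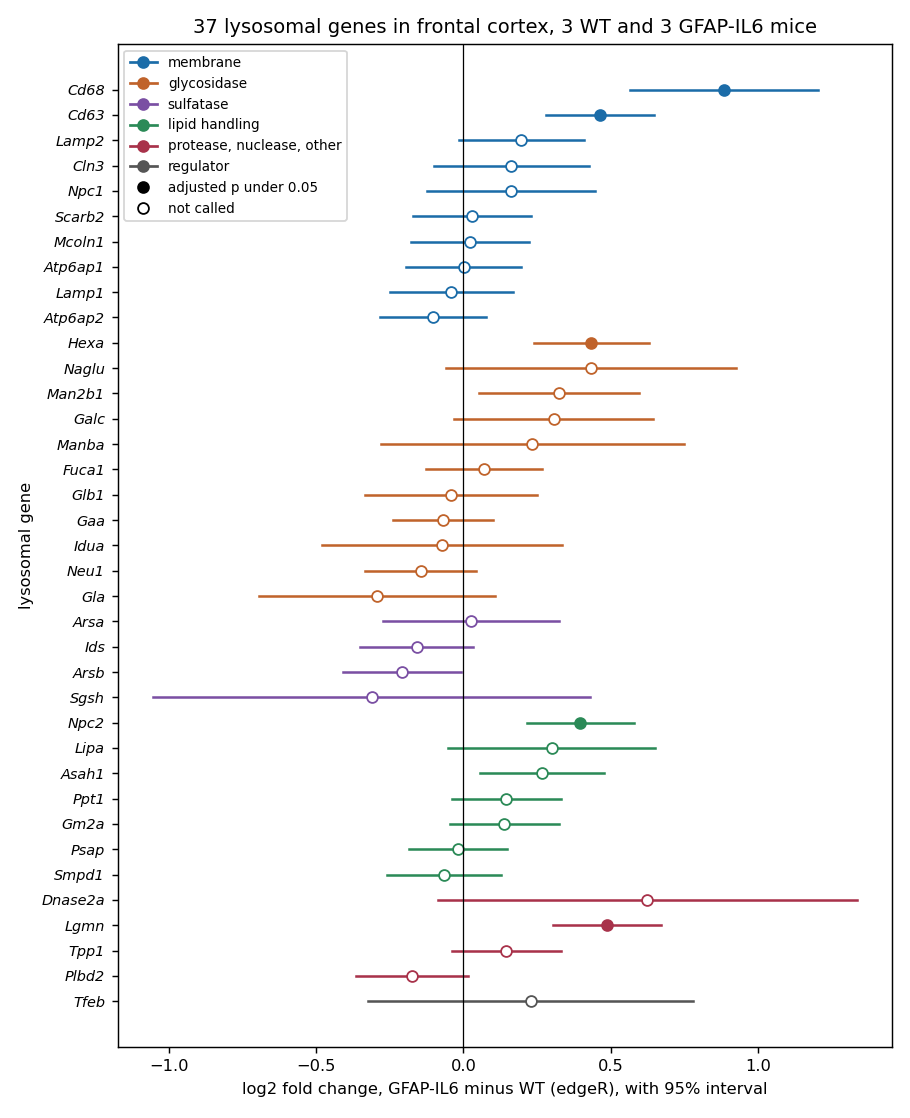
Log2 fold change of each of the 37 genes, GFAP-IL6 minus WT (x axis), with its 95% interval, grouped and coloured by role (y axis, genes). Filled points are the 5 genes called at an adjusted p under 0.05, all to the right of 0, led by Cd68 at 0.88, and the other 32 points lie between -0.31 and 0.63.

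The membrane proteins held the largest rise. Cd68, a heavily glycosylated protein of late endosomes and lysosomes that marks phagocytic cells, was at 19.5, 19.01 and 13.6 CPM in the WT mice and at 33.3, 26.8 and 37.8 CPM in the GFAP-IL6 mice. The groups did not overlap, and the lowest GFAP-IL6 mouse was above the highest WT mouse. Its mean went from 17.4 ± 3.23 to 32.6 ± 5.55 CPM (SD, n = 3 each), a log2 fold change of 0.88 (SE 0.150, edgeR adjusted p = 0.00371).

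Cd63, a tetraspanin of late endosomes that is also carried by exosomes, was at 229, 231 and 218 CPM in WT mice and at 293, 299 and 343 CPM in GFAP-IL6 mice. Again the groups had no overlap, and the log2 fold change was 0.47 (SE 0.086, edgeR adjusted p = 0.00754). A processed copy, Cd63-ps, matches the end of Cd63 in the reference transcripts, and it is not a gene of the count table.

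Lamp1 and Lamp2, the abundant glycoproteins that line the lysosomal membrane, did not pass the test. Lamp1 was at 72.6, 82.2 and 94.1 CPM in WT mice and at 82.6, 78.0 and 80.3 CPM in GFAP-IL6 mice. The GFAP-IL6 values fell inside the WT range, with a log2 fold change of -0.04 and a 95% interval from -0.25 to 0.17. Lamp2 was at 66.6, 75.9 and 81.6 CPM in WT mice and at 76.5, 86.7 and 91.8 CPM in GFAP-IL6 mice. Here the groups overlapped, and the log2 fold change was 0.20 with an interval from -0.02 to 0.41 (edgeR adjusted p = 0.617). The difference in log2 fold change between Cd68 and Lamp1 was not tested.

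The other 6 membrane genes lay between -0.10 and 0.16 on the log2 scale and were not called. They were Scarb2, the carrier of glucocerebrosidase to the lysosome, at 0.03, Npc1, which exports cholesterol across the membrane, at 0.16, and Mcoln1, a cation channel that releases calcium, at 0.02. Cln3, the membrane protein lost in juvenile neuronal ceroid lipofuscinosis, was at 0.16. Atp6ap1 and Atp6ap2, accessory subunits of the proton pump, were at 0.00 and -0.10. Of the 10 membrane genes, 2 rose, 0 fell and 8 were not called.

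**Figure D2:**
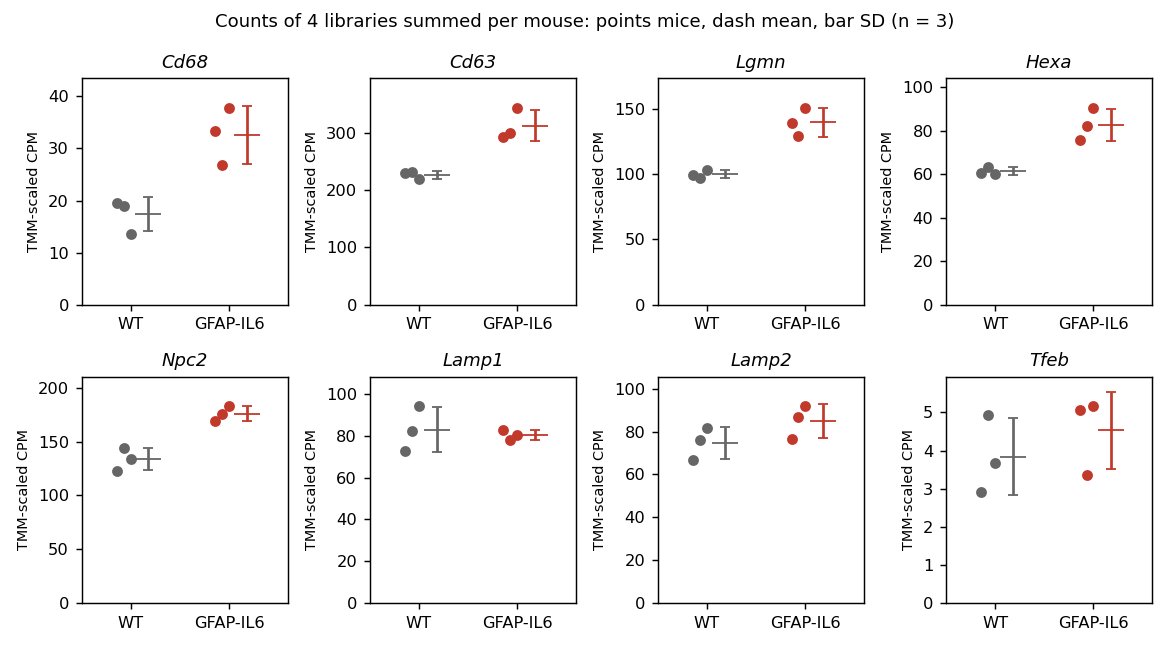
TMM-scaled CPM (y axis, from 0) of 8 genes in the 3 WT and the 3 GFAP-IL6 mice (x axis); each point is 1 mouse, the dash is the mean and the bar the SD. Cd68, Cd63, Lgmn, Hexa and Npc2 have no overlap between the groups, while Lamp1, Lamp2 and Tfeb overlap.

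Among the glycosidases, which remove sugars from glycoproteins, glycolipids and glycosaminoglycans, 1 of 11 rose. Hexa, the alpha subunit of beta-hexosaminidase, whose loss causes Tay-Sachs disease, was at 60.8, 63.4 and 60.2 CPM in WT mice and at 75.8, 82.2 and 90.6 CPM in GFAP-IL6 mice. The WT mice were close together and all GFAP-IL6 mice lay above them. The log2 fold change was 0.43 (SE 0.091, edgeR adjusted p = 0.0195).

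The glycosidases Naglu and Manba also had no overlap between groups without being called. Naglu, which acts in heparan sulfate breakdown, was at 2.65, 3.21 and 3.02 CPM in WT mice and at 3.90, 3.79 and 4.23 CPM in GFAP-IL6 mice. Its log2 fold change of 0.43 was as large as that of Hexa, but with an SE of 0.230 (edgeR adjusted p = 0.655). Manba, beta-mannosidase, had a log2 fold change of 0.23 (SE 0.241).

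Man2b1, the lysosomal alpha-mannosidase, had 0.32 with an interval from 0.05 to 0.60 and did not pass adjustment (edgeR adjusted p = 0.402). Galc, which removes galactose from the myelin lipid galactosylceramide, had 0.31, and Fuca1, the alpha-fucosidase, 0.07. The remaining 5 had negative estimates that were not called. The beta-galactosidase Glb1 was at -0.04, the glycogen-degrading Gaa at -0.07 and Idua, which acts in dermatan and heparan sulfate breakdown, at -0.07. The sialidase Neu1 was at -0.14 and the alpha-galactosidase Gla at -0.29.

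None of the 4 sulfatases was called by edgeR or DESeq2, and 3 of the 4 had negative estimates. Arsb, which removes sulfate from dermatan and chondroitin sulfate, was at 50.6, 55.9 and 55.5 CPM in WT mice and at 46.0, 44.0 and 49.7 CPM in GFAP-IL6 mice. Every GFAP-IL6 mouse was below every WT mouse. The log2 fold change was -0.21 with an interval from -0.41 to -0.01, the only gene of the 37 with a negative estimate and an unadjusted p under 0.05 (edgeR adjusted p = 0.54). Ids, the sulfatase lost in Hunter syndrome, was at -0.16, Sgsh, the heparan sulfamidase, at -0.31 and Arsa, which degrades sulfatide, at 0.02. Sgsh had the lowest counts and the widest negative range, with an interval from -1.05 to 0.43.

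In the lipid group 1 of 7 rose. Npc2, a soluble protein that hands cholesterol to Npc1, was at 123, 144 and 134 CPM in WT mice and at 169, 175 and 183 CPM in GFAP-IL6 mice. The groups did not overlap, and the log2 fold change was 0.40 (SE 0.085, edgeR adjusted p = 0.0228), against 0.16 for its membrane partner Npc1, which was not called.

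Asah1, acid ceramidase, was at 50.2, 44.1 and 44.1 CPM in WT mice and at 50.8, 55.6 and 59.9 CPM in GFAP-IL6 mice. The groups stood just apart, and the log2 fold change of 0.27 did not pass adjustment (SE 0.098, edgeR adjusted p = 0.345). The other estimates were 0.30 for Lipa, the acid lipase of cholesteryl esters, 0.15 for Ppt1, which removes palmitate from proteins, 0.14 for Gm2a, a ganglioside activator protein that works with beta-hexosaminidase, and -0.07 for the acid sphingomyelinase Smpd1. Psap, the precursor of the saposins that present sphingolipids to hydrolases, had WT mice at 520.2, 513 and 507 CPM and GFAP-IL6 mice at 509.6, 510.2 and 499.5 CPM. Its interval ran from -0.19 to 0.15.

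Of the remaining enzymes 1 of 4 rose. Lgmn, legumain, a protease that cuts after asparagine and activates other lysosomal proteases, was at 99.3, 97.4 and 103 CPM in WT mice and at 139.7, 129 and 151 CPM in GFAP-IL6 mice. WT mice were tightly grouped, all GFAP-IL6 mice lay above them, and the log2 fold change was 0.49 (SE 0.086, edgeR adjusted p = 0.00513).

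Dnase2a, which digests DNA of engulfed cells, had the second largest estimate of the 37, at 0.63, but was at 2.19, 4.04 and 1.84 CPM in WT mice and at 3.06, 3.17 and 6.17 CPM in GFAP-IL6 mice. These values overlapped, and the interval ran from -0.09 to 1.34 (edgeR adjusted p = 0.655). Tpp1, a tripeptidyl peptidase, was at 65.5, 67.3 and 68.1 CPM in WT mice and at 73.0, 70.1 and 78.9 CPM in GFAP-IL6 mice, without overlap, and had a log2 fold change of 0.15 that was not called. Plbd2, a phospholipase B-like protein, went the other way without overlap, at 50.2, 52.1 and 54.3 against 44.2, 47.1 and 47.0 CPM, and at -0.17 was not called either.

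Tfeb, the transcription factor that drives lysosomal genes, was at 2.91, 4.93 and 3.67 CPM in WT mice and at 5.06, 3.36 and 5.16 CPM in GFAP-IL6 mice. The groups overlapped, and the log2 fold change was 0.23 (edgeR adjusted p = 0.89). Its interval from -0.32 to 0.78 was wide and held changes in either direction. Tfeb acts largely through its entry into the nucleus, which mRNA counts do not measure.

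Counted by overlap alone, in 9 of the 37 genes the lowest GFAP-IL6 mouse exceeded the highest WT mouse, the 5 called genes with Asah1, Naglu, Tpp1 and Manba, as in 8.43% of all genes tested. Arsb and Plbd2 were the 2 genes with the reverse, which 5.93% of all genes had. With 3 mice against 3, an exact permutation test cannot go below a two-sided p of 0.1, and each of these 11 genes was at that value. Of the 32 genes that were not called, 23 had a 95% interval inside -0.5 and 0.5 on the log2 scale and 30 inside -1 and 1. The 2 that reached beyond were Sgsh and Dnase2a.

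The rise of the 5 genes was also seen set by set, where each set holds 1 library of every mouse and repeats the same RNA. In each of the 4 sets the 3 GFAP-IL6 libraries of Cd68, Lgmn, Cd63, Hexa and Npc2 were above the 3 WT libraries. The genes were called on the sums of these same libraries, so this is no independent support. The share of all genes with such a separation was not counted. Cd68 ranged from 0.73 to 1.06 on the log2 scale between sets, Lgmn from 0.35 to 0.63, Cd63 from 0.43 to 0.54, Hexa from 0.35 to 0.50 and Npc2 from 0.35 to 0.45. Cd63 was called in every set.

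With 2 ng in set A, 4 of 35 genes tested were called, namely Cd68, Cd63, Hexa and Npc2, where 1.01% of all genes were called higher. With 1 ng in set A, 3 of 36 were called, Cd63, Npc2 and Man2b1, against 1.07% of all. With 2 ng in set B, 4 of 36 were called, Cd68, Lgmn, Cd63 and Npc2, against 1.05%, and with 1 ng in set B, 3 of 37, Cd68, Lgmn and Cd63, against 1.06%. Man2b1 was at 0.73 in the set where it was called and as low as 0.15 in another, so its call rested on 1 set. Of the 35 genes tested in all 4 sets, 17 had a positive estimate in each, 5 a negative estimate in each and 13 changed sign. As the sets repeat the same RNA, their signs are not independent, and the shares over all genes were not counted.

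**Figure D3:**
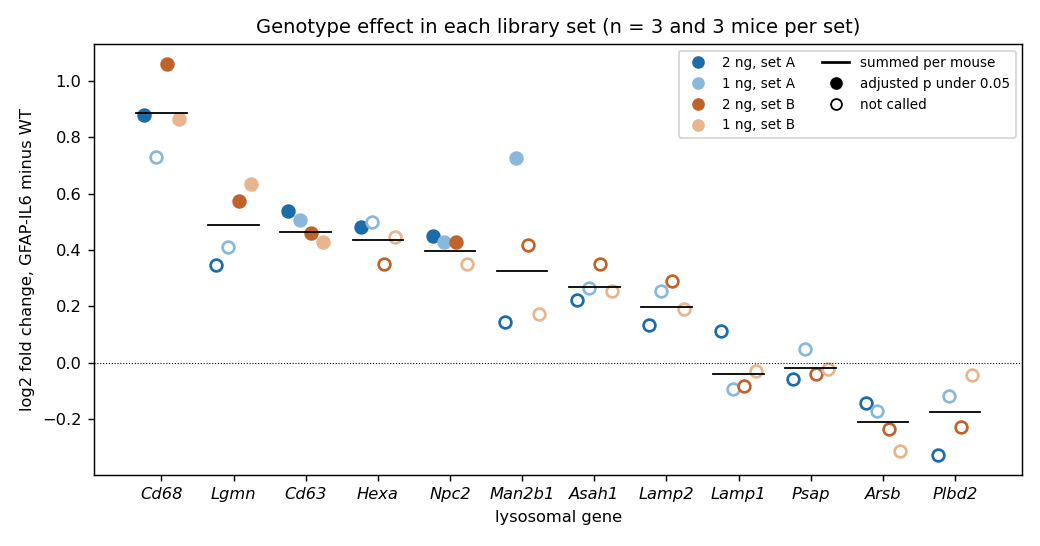
Log2 fold change, GFAP-IL6 minus WT (y axis), of 12 genes (x axis) in each of the 4 library sets; coloured points are sets, filled where the adjusted p is under 0.05, and the black line is the value after summing the libraries of each mouse. Cd68, Lgmn, Cd63, Hexa and Npc2 stay above 0.3 in every set, while Lamp1 and Psap scatter around 0.

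The design text of the study compares cDNA amounts in the tagmentation reaction, and many of all genes, some of the 37 included, differed between them. Counting both directions, the share of the 37 called over both sets was near that of all genes. The differences are therefore not particular to the 37. With 2 ng against 1 ng over both sets, 5 genes were higher and 1 was lower, where 5.37% of all genes were higher and 6.79% lower. Asah1 was higher by 0.38 (SE 0.071, edgeR adjusted p = 0.000816), Mcoln1 by 0.33, Atp6ap2 by 0.30, Arsb by 0.27 and Hexa by 0.20, and Cd63 had a log2 difference of -0.28 (SE 0.058, edgeR adjusted p = 0.00179). With the mouse as a block, 7 genes were higher and 4 lower, Lamp2 and Ids being added above and Naglu, Npc2 and Lgmn below, against 14.9% and 17% of all genes.

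Within set A alone 6 of the genes were called, Asah1, Atp6ap2, Mcoln1, Arsb and Lamp2 higher and Cd63 lower, where 17.1% of all genes were called in either direction. Within set B alone 0 were called by edgeR, with 6 at an unadjusted p under 0.05, where 6.03% of all genes were called. The difference between the sets in the effect of amount was not tested. Asah1 averaged 73.5 ± 7.06 CPM with 2 ng in set A, 49.0 ± 5.50 with 1 ng in set A, 44.3 ± 6.31 with 2 ng in set B and 41.9 ± 7.72 with 1 ng in set B (SD, n = 6 mice each). Atp6ap2 averaged 434 ± 36.6, 317 ± 22.9, 319 ± 18.7 and 295 ± 19.7 CPM in the same order. For both genes the 2 ng libraries of set A stood highest, and in set A all 6 mice had more with 2 ng.

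Hexa was higher with 2 ng in every mouse, 6 of 6, whichever the set, at log2 differences of 0.21 (set A) and 0.22 (set B) that were not called within a set. Cd63 had less with 2 ng in all 6 mice of each set, at -0.39 in set A (edgeR adjusted p = 9.95e-05) and -0.15 in set B, the second not called.

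Between the sets, 0 genes were higher in B and 4 were lower, Arsb by a log2 difference of -0.59, Asah1 of -0.47, Lgmn of -0.29 and Atp6ap2 of -0.28, where 1.91% of all genes were higher and 4.89% lower. At an unadjusted p under 0.05, 3 were higher, and DESeq2 called 2 higher. With the mouse as a block 3 were higher, Cd63, Npc2 and Psap, and 7 lower, with Lamp2, Ids and Ppt1 added, against 11.4% and 11.2% of all genes. With 2 ng alone 9 of the genes differed between the sets, where 19.9% of all genes did. With 1 ng alone 0 did by edgeR, with 4 at an unadjusted p under 0.05, where 0.705% of all genes did.

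**Figure D4:**
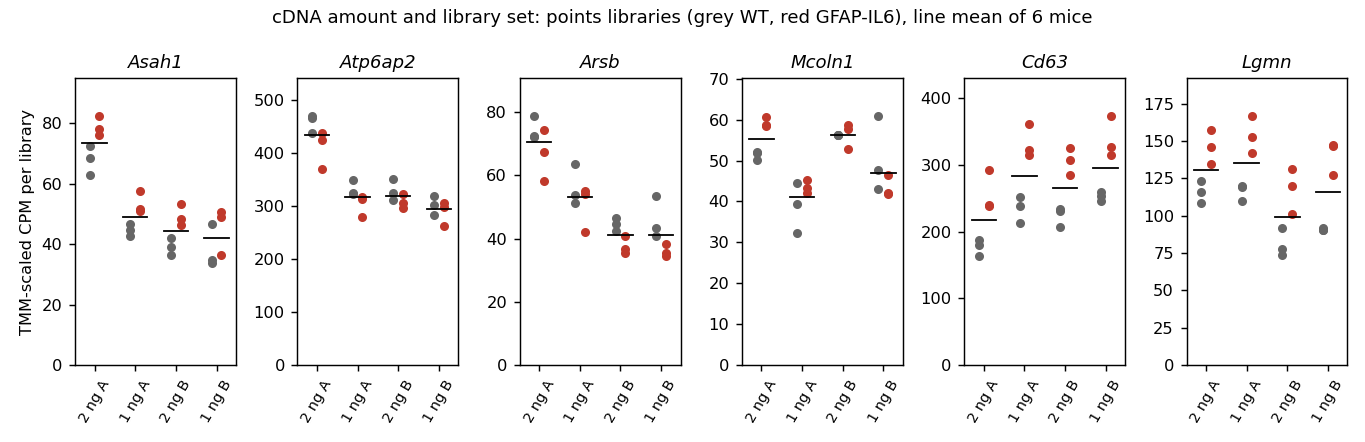
TMM-scaled CPM per library (y axis, from 0) of 6 genes by cDNA amount and set (x axis); grey points are WT and red points GFAP-IL6 libraries, and the line is the mean of 6 mice. Asah1, Atp6ap2 and Arsb are highest with 2 ng in set A, while for Cd63 and Lgmn the red points lie above the grey points in each condition.

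By the study's methods, samples are pooled after reverse transcription and then amplified and tagmented as a pool. Which of these 24 libraries shared a pool is not given in the labels, and if those of a set and amount did, the spread over mice does not cover the spread between tagmentation reactions. Whether the genotype effect differed by amount or set was tested as an interaction. By edgeR 0 of the 37 genes were called for amount, where 0% of all genes were, and 0 for set, where 0% were. None of the 37 had an unadjusted p under 0.05 in either test, beside 93 of 13961 genes for amount and 239 of 14167 for set. DESeq2 called 0 in both. These fits leave the differences between mice in the error, and few genes of any kind reached that p. The 0 of 37 therefore does not show that the genotype effects were alike. With the mouse as a block 0 were called again, and at an unadjusted p under 0.05 there were 0 of the 37 for amount and 4 for set, beside 538 of 13961 and 597 of 14167 genes.

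Other lysosomal lists gave a background for the 37 genes. Among 24 further hydrolases and luminal proteins tested, 8 were higher and 0 lower at an unadjusted p under 0.05. The median log2 fold change of this list was 0.20, with 17 of 24 above 0. Among 20 further membrane and transport proteins 1 was called, Laptm5, a lysosomal protein of hematopoietic cells, at 1.04 (SE 0.159, edgeR adjusted p = 0.00156). The median of the membrane list was 0.02, with 11 of 20 above 0.

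None of 16 sorting genes, which carry hydrolases to the lysosome, none of 17 V-ATPase subunits and none of 13 genes of the MiT/TFE factors and the Ragulator complex were called by edgeR or DESeq2. At an unadjusted p under 0.05 there were 1, 0 and 0 of them. Their medians were -0.03, -0.04 and -0.03.

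Microglia markers were also higher in GFAP-IL6 mice. Of 15 markers 12 were called higher, and their sum was between 615 and 667 CPM in WT mice and between 1106 and 1486 CPM in GFAP-IL6 mice, with none of the 15 at 0. The 3 markers that were not called were P2ry12, a purine receptor of surveying microglia, at -0.02, Gpr34 at 0.04 and Siglech at 0.42. Tmem119 at 0.59 and Cx3cr1 at 0.72 were among the 12 called. The mouse with the highest marker sum, GFAP-IL6 mouse 3, also had the highest Cd68, Cd63, Lgmn, Hexa and Npc2. The same mouse had the highest Il6 (4.23 CPM), Gfap (146 CPM) and total counts (37582644), so the match is not particular to microglia markers. GFAP-IL6 mouse 1, with the lowest sum of the 3, had more Cd68 and Lgmn than GFAP-IL6 mouse 2, whose sum was 1319 CPM, and less Cd63, Hexa and Npc2. In bulk tissue more cells of a type and more RNA per cell cannot be told apart, and the part of microglia in the rise of these genes was not tested.

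For other cells, 0 of 7 border macrophage markers and 0 of 3 blood leukocyte markers tested were called by edgeR or DESeq2, with 1 border macrophage marker lower at an unadjusted p under 0.05. The border macrophage sum was 13.3 to 15.6 CPM in WT mice and 11.5 to 15.95 CPM in GFAP-IL6 mice. The leukocyte sum was 0.656 to 4.38 CPM in WT mice and 2.95 to 7.497 CPM in GFAP-IL6 mice, highest in GFAP-IL6 mouse 3, and the neutrophil marker Ly6g was at 0 throughout. Of 8 astrocyte markers 1 was called, Gfap itself, with 3 higher and 0 lower at an unadjusted p under 0.05. The astrocyte sum was 2932 to 3027 CPM in WT mice and 3296 to 3502 CPM in GFAP-IL6 mice. Of 5 endothelial markers 1 was called, Flt1, a receptor for vascular endothelial growth factor, and their sums were 48.4 to 53.6 and 57.6 to 80.6 CPM. All 5 endothelial estimates were positive, with a median log2 fold change of 0.70, and 4 were higher at an unadjusted p under 0.05. None of 9 neuron markers, 7 oligodendrocyte markers or 3 choroid plexus markers tested was called by edgeR or DESeq2, with none at an unadjusted p under 0.05.

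**Figure D5:**
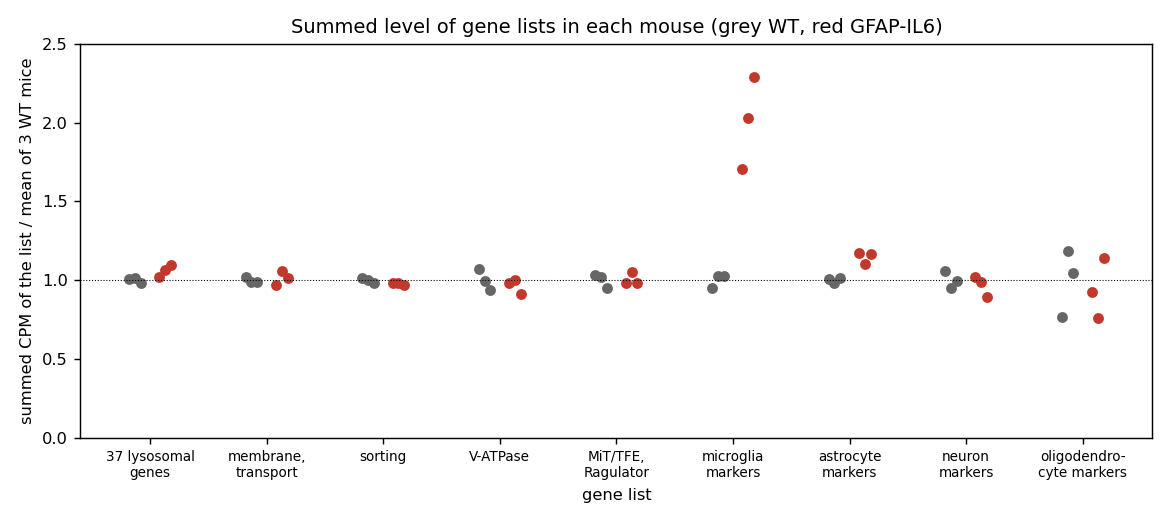
Summed CPM of each gene list in each mouse, divided by the mean of the 3 WT mice (y axis, from 0), for the 37 genes, 4 other lysosomal lists and 4 marker lists (x axis); grey points are WT and red points GFAP-IL6 mice. The 37 genes lie between 1.02 and 1.10 in GFAP-IL6 mice and microglia markers between 1.70 and 2.29, while sorting genes stay between 0.970 and 0.985.

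Leaving out single mice removed some of the calls. Without GFAP-IL6 mouse 3 only Cd68 of the 5 remained called. Without WT mouse 1 and without GFAP-IL6 mouse 2 there were 3, Hexa and Npc2 being lost, and without WT mouse 2 there were 3, Hexa and Lgmn being lost. Without WT mouse 3, whose choroid plexus markers stood apart, or GFAP-IL6 mouse 1 all 5 were called again. For 9 of the 37 genes, Lamp1, Npc1, Idua, Sgsh, Arsa, Arsb, Ppt1, Dnase2a and Plbd2, the last 1000 nt overlap an exon of a gene on the opposite strand, and as the strand setting of the counting is not given in the sources used here, reads of the pair may not be separated. None of the 5 called genes was among them.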

How the data were processed

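The 24 libraries hold frontal cortex RNA of 3 WT and 3 GFAP-IL6 mice. The authors trimmed polyA, aligned reads with STAR 2.4 and counted unique reads on genes with featureCounts, and deposited raw counts per gene and library without normalization. The methods name mm10 for mouse, while the submitters' processing notes list hg19, and the mouse gene identifiers fit the former.

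Counts of the 4 libraries of a mouse were summed. GFAP-IL6 and WT mice were compared with the quasi-likelihood test of edgeR 4.0.16 in R 4.3.3, following filterByExpr and TMM scaling, with Benjamini-Hochberg adjustment over all genes tested. A gene was called at an adjusted p under 0.05, and a DEG also had an absolute log2 fold change above 1. SE is the absolute log2 fold change divided by the root of F. The methods of the study name DESeq2, run here as an alternative (1.42.0), with limma 3.58.1 on single libraries. cDNA amounts and sets were compared over 12 sums of 6 mice with genotype in the model, without and with the mouse as a block. Sums of the same mouse come from the same RNA and deviated together (r of 0.265 to 0.376 between amounts, 0.0974 to 0.241 between sets). Scripts were checked on simulated counts.

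Values are given for each mouse for called genes, genes with an absolute log2 fold change above 0.5, Lamp1, Lamp2, Cd68, Tfeb and the gene of smallest adjusted p in each role group, and Asah1, Naglu, Psap, Tpp1 and Plbd2 were added after their values were seen. The 37 genes and all lists were chosen with earlier results of these data known. Promoters came from RefSeq (34 of 37 matched), gene positions from GENCODE on GRCm38, and alignments of the last 300 nt (at least 100 nt, 97% identity) from BLAST+ 2.17.0. A result of a further list is not reported here.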

Additional observations from a re-analysis of the deposited data

How the results depend on the processing

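For GFAP-IL6 against WT, 5 genes were called with DESeq2, with its size factors, with library totals, without a filter, with at least 10 counts in every mouse, at equal totals and with the replicate block of same-numbered mice. The numbers do not pair the mice (r of -0.0489, -0.0322 and -0.0335 for same-numbered mice), and over all genes the block gave 215 calls in place of 263. Calls numbered 1 to 5 on leaving out a mouse, 3 with 1 ng in set A alone, 3 with 1 ng in set B alone, and 7 with limma on 24 libraries, adding Lamp2 and Asah1. DEGs numbered 0 in the main test, 1 with 2 ng in set B alone (Cd68) and 0 to 1 on leaving out a mouse. Over all genes 462 were called without a filter and 537 with limma, and down to 146 on leaving out a mouse and 125 in a single set. Between amounts the count of 6 became 11 with the mouse as a replicate block and 0 within set B, and between sets the count of 4 became 10 with the block, 9 within 2 ng and 0 within 1 ng. The comparisons within a set or an amount were chosen after seeing the data. Calls for the interactions numbered 0 with the block and with DESeq2.

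The direction of the 5 called genes held in all alternatives. The genes that changed sign in some alternative were not called in the main test. Leaving out a mouse gave log2 ranges of -0.131 to 0.0554 for Lamp1, -0.0559 to 0.0700 for Scarb2, -0.0385 to 0.0712 for Mcoln1, -0.0855 to 0.0565 for Atp6ap1, -0.214 to 0.0570 for Glb1, -0.193 to 0.102 for Idua and -0.112 to 0.138 for Arsa. Atp6ap1 was at -0.00738 with DESeq2, -0.00511 with its size factors and -0.0292 with limma. At equal totals Glb1 was at 0.0246, Idua at 0.0566 and Arsa at -0.0292, and with library totals Psap was at 0.0109. With 2 ng in set A alone Lamp1 was at 0.115, Gla at 0.0487, Neu1 at 0.0622, Manba at -0.218, Galc at -0.100 and Tfeb at -0.273. With 1 ng in set A alone Atp6ap1 was at -0.0510, Glb1 at 0.108, Psap at 0.0486 and Tfeb at -0.120. With 2 ng in set B alone Gaa was at 0.0630, Gla at 0.0707 and Idua at 0.176. With 1 ng in set B alone Mcoln1 was at -0.199, Gaa at 0.0320 and Arsa at -0.215. The cause was not tested. Several genes under 10 CPM have wide intervals at 3 mice a group.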

Other observations

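For some of the lysosomal genes the neighbour on the opposite strand was itself counted often. Summed over the 24 libraries, Npc1 had 1802 counts beside 2182 for Rmc1, Dnase2a 462 beside 2243 for Mast1, Idua 677 beside 1402 for Dgkq, Arsa 2468 beside 1037 for the antisense gene C230037L18Rik and Ppt1 16695 beside 2366 for Cap1. Lamp1, with 9102 counts, lay beside 413 for Grtp1. Arsb had 5674 counts beside 2 for Gm26527, Plbd2 had 5532 beside 18 for Sds and Sgsh had 180 beside 17 for Card14. Whether reads of a pair were assigned to the wrong gene was not tested.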
